A study of Mus musculus with 454 samples.

Results

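The potassium channel genes described here are those with a symbol made of Kcn, a letter from a to v and a number, and a mean level of at least 1 CPM (a gene's count scaled to the library total) in at least 1 of 4 mouse brain regions. Of 43346 genes in the table, 80 have such a symbol and 67 reached the limit. The members nearest to it on the inside were Kcnq1 with a highest regional mean of 1.05 CPM, Kcnk5 with 1.21 CPM and Kcne4 with 1.37 CPM. Kcnj13 with 0.793 CPM, Kcnk7 with 0.419 CPM and Kcna10 with 0.309 CPM were nearest on the outside. The members fall into 16 families, of which the inward rectifiers (Kcnj, 12 of 15 genes), the channels with paired pore domains (Kcnk, 10 of 14) and the EAG, ERG and ELK channels (Kcnh, 8 of 8) are the largest.

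RNA-seq of polyadenylated RNA was run on libraries of mouse brain, labelled AMY (amygdala, 115 libraries), Nac (nucleus accumbens, 112), PFC (prefrontal cortex, 112) and VTA (ventral tegmental area, 115). The title of the series names social isolation in adolescence, the medial amygdala and sex differences in reward. Within each region the libraries came from female or male mice that were group housed or socially isolated and had received saline (0 mg/kg cocaine) or 7.5 mg/kg cocaine either acutely or chronically. That makes 16 groups per region and 64 in all, with 5 to 8 libraries each. No genotype, strain or age is given in the sources used here, and nothing says that libraries of a group came from separate animals, so that p-values reflect how far the libraries of a group scatter, and that scatter may be technical only.

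Potassium channels let potassium flow across the cell membrane and thereby set the resting potential of neurons, end action potentials and limit repetitive firing. Voltage-gated subunits (Kcna to Kcnd, Kcnh, Kcnq) assemble as tetramers, modifier subunits (Kcnf, Kcng, Kcns, Kcnv) form no working channel alone but alter Kcnb channels, inward rectifiers (Kcnj) pass current near rest or when G proteins activate them, and Kcnk channels carry leak current. In striatum, inward rectifiers hold medium spiny neurons at a negative resting potential, and in midbrain dopamine neurons G-protein-gated Kcnj channels carry the autoinhibition by dopamine.

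In depth, 1 CPM stands for 11.21 counted reads in the smallest library, 21.71 in the library of median total and 52.34 in the largest. Marker lists set the regions apart: the summed level of the striatal list had a median of 5239 CPM in Nac and at most 518 CPM in the other regions, that of the cortical glutamatergic list 2784 CPM in PFC, and that of the dopamine neuron list 3789 CPM in VTA. The list of medial amygdala and hypothalamic genes had a median of 184 CPM in AMY and 116 CPM or less elsewhere. In all, 27 libraries stood apart from their region on principal components or on markers of other tissues (8 in PFC, 7 in Nac, and 6 each in AMY and VTA), and results that change without them are given both ways. Without them 66 genes reach the limit, and only Kcne2 drops out.

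The members differed widely between regions. The log2 range of a member's mean over the 4 regions had a median of 1.85, against 0.62 over the 15362 genes with at least 1 CPM in a region. VTA was the region of highest mean for 25 members (37.3%, against 34.5% of these genes) and PFC for 19 (28.4%, against 17.4%). Nac was so for 16 members (23.9%, against 29.0%) and AMY for 7 (10.4%, against 19.2%). The limit takes a gene in by its highest region. It thereby fixed VTA as the highest region of Kcnk5 (1.21 CPM, at most 0.646 CPM elsewhere) and Kcnq1 (1.05 CPM, at most 0.814 CPM elsewhere), and AMY as that of Kcne4. Most members reached it in each region: 66 members were at or above 1 CPM in VTA, 64 in AMY, 63 in Nac and 60 in PFC. Summed over members, the level was 3628 ± 183 CPM (SD over libraries) in AMY, 4133 ± 261 CPM in PFC, 3968 ± 430 CPM in VTA and 3925 ± 371 CPM in Nac. As these are pieces of tissue, fewer cells of a type and less RNA per cell cannot be told apart in any of these values.

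Differences between regions were called where edgeR's quasi-likelihood test gave a Benjamini-Hochberg adjusted p under 0.05 over all genes tested and the fitted difference was at least 1 on the log2 scale (2-fold). Nac and VTA were the most unlike pair, with 18 members higher in Nac and 17 higher in VTA, or 52.2% of the 67, where 21.9% of all 18627 genes were called. Between PFC and VTA 32 members were called (18 higher in PFC, 21.9% of all genes), between Nac and PFC 28 (18 higher in PFC, 13.9% of all genes) and between AMY and VTA 26 (17 higher in AMY, 15.7% of all genes). AMY stood nearest to the others, with 22 members called against Nac (14 higher in AMY, 12.1% of all genes) and 13 against PFC (8 higher in PFC, 11.2% of all genes).

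**Figure D1:**
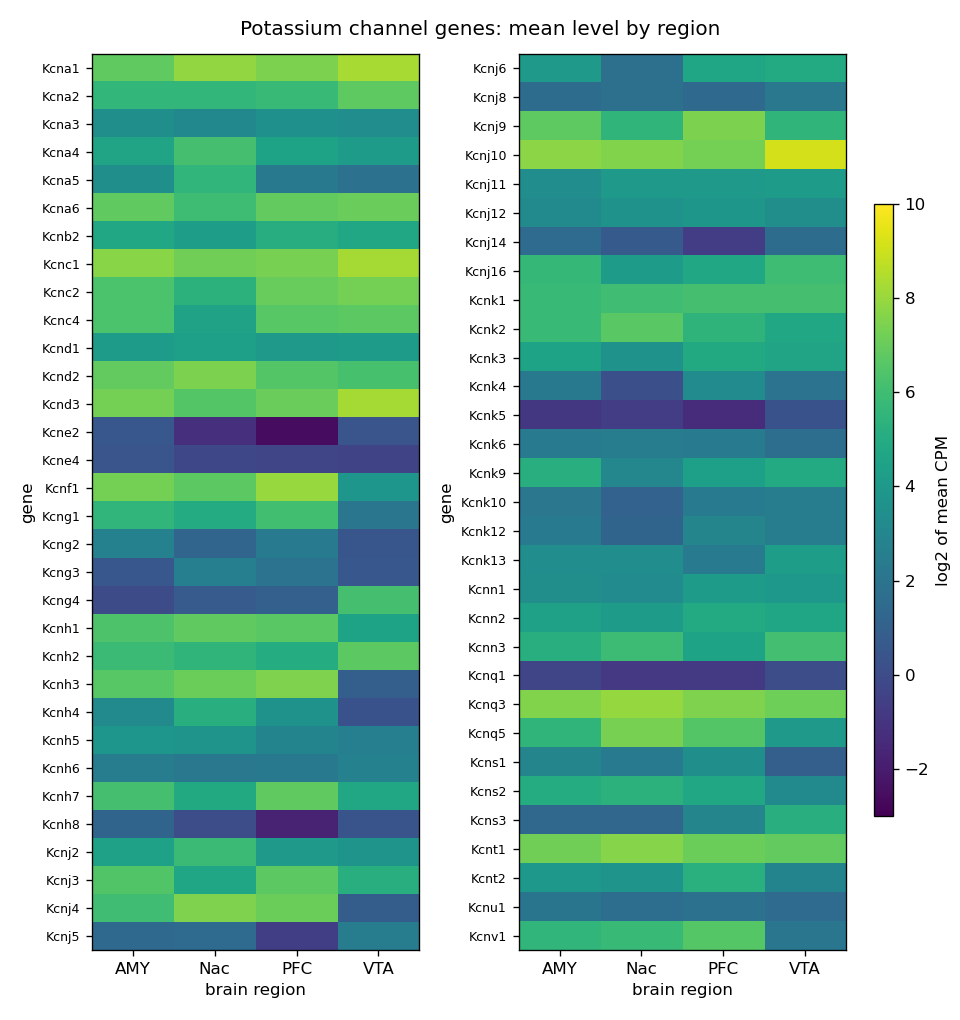
Mean level of 63 of the 67 genes (rows) in the 4 brain regions (columns), as the log2 of mean CPM over all libraries of a region. The rows of Kcng4 and Kcns3 are brightest in VTA and those of Kcnj4, Kcnh3, Kcnf1 and Kcnv1 are dark there.

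In VTA, 4 members were at least 2-fold above each of the other regions (4.78% of all genes were), among them Kcng4, Kcns3 and Kcnj10. Kcng4, a modifier subunit, was the most restricted of all members. Its level in VTA was 73.1 ± 42.2 CPM (SD, n = 115), with a lowest library of 12.6 CPM, a median of 67.7 CPM and a highest of 243 CPM. In the other regions its means were 0.991 ± 0.812 CPM (AMY, n = 115), 1.64 ± 1.04 CPM (Nac, n = 112) and 1.97 ± 0.791 CPM (PFC, n = 112). Every VTA library lay above every library of the other regions, although the VTA libraries were spread widely among themselves. The fitted difference from PFC, the next region, was 5.15 ± 0.11 (SE) on the log2 scale (adjusted p = 2.1e-162, edgeR).

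Kcns3, another modifier of Kcnb channels, had 37.0 ± 12.8 CPM in VTA (lowest 8.39, median 37.6, highest 61.1) and 7.46 ± 0.832 CPM in PFC, the next region. In AMY and Nac it stayed near 2.5 CPM, at 2.54 ± 0.699 and 2.42 ± 0.918 CPM. Of the 115 VTA libraries 114 lay above the highest library elsewhere, and the fitted difference from PFC was 2.18 ± 0.048 (SE, adjusted p = 6.5e-159). Kcnb2, whose channels these subunits modify, lay between 19.0 and 34.8 CPM in all 4 regions.

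Kcnc1, Kcnc2 and Kcnc4, which encode fast voltage-gated subunits known from rapidly firing neurons, had their highest mean in VTA. Kcnc1 had 300 ± 51.8 CPM in VTA and 145 ± 28.5 CPM in Nac, and Kcnc2 157 ± 43.3 and 41.5 ± 21.1 CPM. Kcnc4 had 104 ± 10.1 CPM in VTA and 98.4 ± 7.83 CPM in PFC, a difference that did not pass (adjusted p = 0.72), and was at least 2-fold lower in Nac than in each other region, at 22.4 ± 12.8 CPM.

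Kcnj10, the inward rectifier of astrocytes and oligodendrocytes, had 578.5 ± 76.1 CPM in VTA (lowest 323, median 578.6, highest 833). AMY had 212 ± 42.9 CPM, Nac 188 ± 44.2 CPM and PFC 155 ± 26.3 CPM, and 114 of 115 VTA libraries exceeded every AMY library. The summed oligodendrocyte list had a median of 17054 CPM in VTA (range 10559 to 23803), against 6215 CPM in Nac, 3350 CPM in AMY and 2267 CPM in PFC. The summed astrocyte list was lowest in VTA, at 2826 CPM against 3599 CPM or more elsewhere, but its genes went different ways. Slc1a2 and Slc1a3 had their lowest median in VTA (1694 and 242 CPM). Aqp4, S100b, Aldh1l1 and Gja1 had their highest there (210, 277, 75.3 and 243 CPM), and Gfap had its highest in AMY (172 CPM). The part of either cell type in the Kcnj10 difference was not tested. Kcnd3, a Shal subunit of the transient A-type current, missed the 2-fold limit narrowly, with 301 ± 89.8 CPM in VTA, 153 ± 18.8 CPM in AMY and a fitted difference of 0.98 ± 0.035 (SE).

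The opposite pattern, at least 2-fold lower in VTA than in each other region, was shown by 10 members (4.23% of all genes): Kcnj4, Kcnh3, Kcnh4, Kcnh1, Kcnf1, Kcng1, Kcnv1, Kcns1, Kcns2 and Kcnq5. Of these Kcnf1, Kcng1, Kcnv1, Kcns1 and Kcns2 are modifier subunits, so that the modifiers were split between genes high in VTA (Kcng4, Kcns3) and genes low there. Kcnj4, a strong inward rectifier, had 180 ± 36.0 CPM in Nac, 133 ± 12.3 CPM in PFC, 64.7 ± 13.6 CPM in AMY and 1.77 ± 2.84 CPM in VTA. The fitted difference between Nac and VTA was 6.86 ± 0.082 (SE, adjusted p = 2.3e-250). Kcnh3, an ELK-type voltage-gated subunit, went from 182 ± 26.2 CPM in PFC, 133 ± 23.3 CPM in Nac and 98.6 ± 16.9 CPM in AMY to 1.91 ± 5.91 CPM in VTA (PFC minus VTA 6.96 ± 0.076, adjusted p = 4.0e-265).

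Kcnf1 had 257 ± 31.3 CPM in PFC, 157 ± 29.0 CPM in AMY, 104 ± 18.8 CPM in Nac and 14.0 ± 7.96 CPM in VTA, with the highest VTA library at 60.6 CPM and the lowest PFC library at 145 CPM. Kcnv1 was likewise highest in PFC (94.97 ± 16.8 CPM) and lowest in VTA (4.27 ± 1.98 CPM), with Nac (54.2 ± 13.9 CPM) and AMY (46.8 ± 14.3 CPM) between. The highest VTA values of Kcnh3, Kcnj4, Kcnf1, Kcng1, Kcnv1 and Kcnh4 all came from 1 library, replicate 7 of the group-housed females with acute cocaine, which also had the highest summed cortical glutamatergic list of the 115 VTA libraries (601 CPM, against a median of 160 CPM). In that library Kcnh3 was at 64.4 CPM, where the VTA median was 1.22 CPM.

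**Figure D2:**
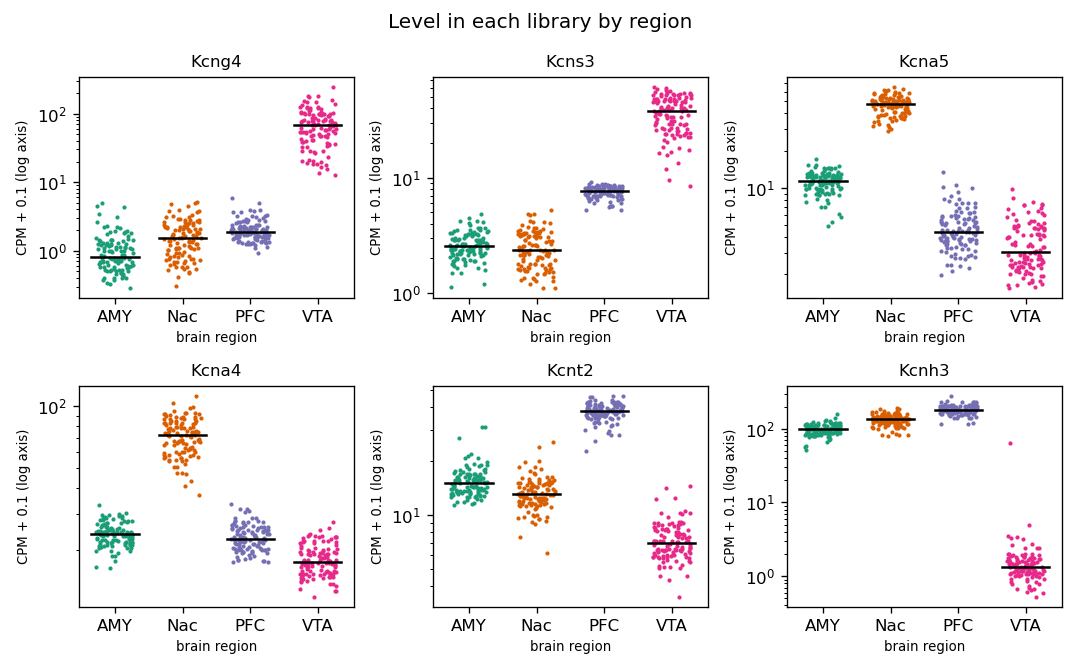
Level of 6 genes in each library (points) of the 4 regions, as CPM + 0.1 on a log axis, with the median as a line. Kcng4 in VTA and Kcna5 and Kcna4 in Nac share no library value with the other regions, and Kcnh3 shows the single VTA library at 64.4 CPM.

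In Nac, 4 members were at least 2-fold above each other region (2.47% of all genes): Kcna5, Kcna4, Kcnh4 and Kcnj2. Kcna5, a Shaker subunit, had 47.0 ± 7.93 CPM in Nac (lowest 28.7, median 47.8, highest 65.1), 11.2 ± 2.19 CPM in AMY, 4.75 ± 1.95 CPM in PFC and 3.59 ± 1.73 CPM in VTA. Kcna4, the Shaker subunit that inactivates rapidly, had 71.9 ± 14.6 CPM in Nac (lowest 36.9, median 72.4, highest 112), 23.8 ± 3.00 CPM in AMY, 22.9 ± 3.43 CPM in PFC and 17.9 ± 3.20 CPM in VTA. For both genes all 112 Nac libraries lay above every library of the other regions. Over AMY, the next region, the fitted differences were 2.13 ± 0.045 (SE, adjusted p = 2.1e-161) for Kcna5 and 1.65 ± 0.030 (adjusted p = 1.4e-182) for Kcna4.

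Kcnh4 had 35.7 ± 11.6 CPM in Nac, 12.3 ± 3.48 CPM in PFC, 9.14 ± 2.30 CPM in AMY and 1.22 ± 0.987 CPM in VTA. Kcnj2, a classical strong inward rectifier, had 58.9 ± 12.8 CPM in Nac and 21.4 ± 5.76 CPM in AMY, the next region. Kcnj2 and Kcnj4 thus both had their highest mean in Nac, but other inward rectifiers did not. Kcnj12 was highest in PFC (14.8 ± 1.96 CPM, against 12.9 ± 1.92 CPM in Nac) and Kcnj14 in VTA (2.99 ± 0.737 CPM, against 1.62 ± 0.328 CPM in Nac). Kcnk2, a leak channel opened by stretch and lipids, reached 102 ± 18.1 CPM in Nac and 53.6 ± 8.95 CPM in AMY, a fitted difference of 0.998 ± 0.031 (SE) that fell just short of the limit. The M-current genes Kcnq3 (249 ± 57.3 CPM) and Kcnq5 (164 ± 32.2 CPM) also had their highest mean in Nac and their lowest in VTA, at 139 ± 18.7 and 15.8 ± 5.59 CPM.

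Lower in Nac than in each other region by at least 2-fold were 6 members (1.67% of all genes), Kcnc4, Kcnj6 and the leak channels Kcnk4, Kcnk9, Kcnk10 and Kcnk12. Kcnj6, a subunit of G-protein-gated channels, had 3.48 ± 2.76 CPM in Nac, 15.8 ± 3.81 CPM in AMY, 24.9 ± 5.604 CPM in PFC and 31.3 ± 11.9 CPM in VTA. The difference between VTA and PFC was small, at 0.22 ± 0.070 (SE, adjusted p = 0.0023), beside that of Nac minus VTA, at -3.19 ± 0.081. Its partner subunits were ordered otherwise: Kcnj3 had 107 ± 11.4 CPM in PFC, 88.5 ± 11.4 CPM in AMY, 36.1 ± 7.13 CPM in VTA and 25.3 ± 11.9 CPM in Nac. Kcnj9 had 173 ± 19.0 CPM in PFC and about equal means in VTA (45.1 ± 9.22 CPM) and Nac (44.9 ± 8.88 CPM), and Kcnj5 was highest in VTA at 5.47 ± 1.55 CPM and lowest in PFC at 0.667 ± 0.384 CPM. In Kcnj3 31.1% of the exon length overlaps a gene on the opposite strand.

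PFC had 2 members at least 2-fold above each other region (2.26% of all genes). Kcnt2, a sodium-activated channel, had 37.6 ± 4.23 CPM in PFC (lowest 22.7, median 37.7, highest 45.9) and 15.4 ± 3.24 CPM in AMY. Of the 112 PFC libraries 105 lay above the highest AMY library, and the fitted difference was 1.39 ± 0.035 (SE, adjusted p = 1.9e-138). Kcnk4, a mechanically gated leak channel, had 9.73 ± 2.15 CPM in PFC and 4.78 ± 0.765 CPM in AMY. In Kcnk4 13.1% of the exon length overlaps another gene, Catsperz, on the same strand, so that its counts are uncertain there. The next largest leads of PFC were those of Kcnv1, Kcnf1 and Kcnh7, an ERG-type subunit with 114 ± 21.6 CPM in PFC and 72.0 ± 12.3 CPM in AMY (fitted difference 0.77 ± 0.049, SE). Lowest in PFC by at least 2-fold were Kcnh8, Kcnj5 and Kcnj14 (3 members, 1.99% of all genes).

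No member was at least 2-fold above (1.2% of all genes) or below (0.145% of all genes) each other region in AMY. The largest lead was that of Kcnh8, an ELK-type subunit, with 2.27 ± 0.725 CPM in AMY and 1.296 ± 0.515 CPM in VTA (fitted difference 0.81 ± 0.061, SE). Kcnk9, an acid-sensitive leak channel, had 36.4 ± 9.28 CPM in AMY against 30.4 ± 7.66 CPM in VTA, and Kcng2 6.47 ± 2.51 CPM against 5.36 ± 1.43 CPM in PFC. These 3 passed an adjusted p of 0.05 against each other region without the limit on size. Kcne4 reached 1 CPM in AMY alone (1.37 ± 0.551 CPM, against 0.868 ± 0.348 CPM in Nac), so that the limit itself fixed AMY as its highest region, and its values are a description. Kcnh5 had its highest mean in AMY, at 14.3 ± 3.84 CPM, and its difference from Nac (13.0 ± 3.24 CPM) did not pass (0.07 ± 0.057, SE, adjusted p = 0.24).

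The members that varied least over regions were Kcnk1, Kcnd1, Kcna3, Kcnh6 and Kcnu1. Kcnk1, a weak leak channel, ran from 56.7 ± 6.04 CPM in AMY over 64.4 ± 10.7 CPM in Nac and 71.4 ± 6.87 CPM in PFC to 71.8 ± 10.04 CPM in VTA, and the difference between PFC and VTA did not pass (adjusted p = 0.059). Kcnd1 lay between 15.7 and 20.4 CPM and Kcna3, a Shaker subunit also found in immune cells, between 8.28 and 11.5 CPM. Kcnh6 and Kcnu1, the latter known as the sperm channel opened by alkaline pH, were low throughout, at 4.66 to 6.56 CPM and 2.91 to 4.14 CPM.

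Compared per kilobase of exon, which allows levels of different genes to be set side by side, the leading members included Kcnj10 in VTA (107 CPM per kilobase), Kcnj4 in Nac (83.8), Kcna1 in VTA (65.3) and Kcnf1 in PFC (53.6). Kcnj9, Kcnd2, Kcnk1 and Kcnc1 were also among the first 10, with highest regional values of 40.3, 33.9, 32.1 and 31.7 CPM per kilobase. Kcnj10 alone made up 16.7% of the members' summed level per kilobase in VTA and Kcnj4 13.0% in Nac. Kcnj genes together held nearly the same share everywhere, from 24.3% in AMY to 25.4% in PFC, while its leading gene changed from Kcnj10 in AMY and VTA to Kcnj4 in Nac and PFC.

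Of 5 pairs of members within 200 kb of each other in the genome, 4 had their highest mean in different regions. Other pairs of genes were not counted beside them, so this is a description only. On chromosome 6 Kcna5 (highest in Nac), Kcna1 and Kcna6 (both highest in VTA) follow each other with gaps of 105 and 61.9 kb. Kcna1, a Shaker subunit of axons, had 312 ± 116 CPM in VTA, 241 ± 46.0 CPM in Nac, 172 ± 23.2 CPM in PFC and 115 ± 26.5 CPM in AMY, while Kcna5 had its lowest mean in VTA. In Kcna6 39.6% of the exon length overlaps a gene on the opposite strand. On chromosome 1 Kcnj9 (highest in PFC) ends 11.9 kb before Kcnj10 (highest in VTA), and on chromosome 11 Kcnj16 (highest in VTA) lies 38.2 kb from Kcnj2 (highest in Nac).

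The 250 bases upstream of the start are shown for 4 of the members that separate the regions most, Kcng4 (high in VTA alone), Kcna5 (high in Nac) and Kcnj4 and Kcnf1 (all but absent or low in VTA), from RefSeq on GRCm38.p6. They lie at chr8:119635681-119635930, chr6:126535556-126535805, chr15:79505242-79505491 and chr12:17176889-17177138, all on the minus strand, and are written 5′ to 3′ in the direction of the gene. Capitals mark matches on either strand to CCAAT or GGGCGG (a GC box).
Kcng4: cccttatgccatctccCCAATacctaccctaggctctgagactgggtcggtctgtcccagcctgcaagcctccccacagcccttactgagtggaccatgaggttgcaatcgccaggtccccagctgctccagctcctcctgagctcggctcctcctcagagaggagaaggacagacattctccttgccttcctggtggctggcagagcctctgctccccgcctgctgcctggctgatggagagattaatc
Kcna5: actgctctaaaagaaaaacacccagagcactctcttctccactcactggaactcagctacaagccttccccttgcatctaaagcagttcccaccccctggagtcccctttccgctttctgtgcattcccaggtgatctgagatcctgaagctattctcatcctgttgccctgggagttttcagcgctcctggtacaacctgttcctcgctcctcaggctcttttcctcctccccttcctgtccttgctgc
Kcnj4: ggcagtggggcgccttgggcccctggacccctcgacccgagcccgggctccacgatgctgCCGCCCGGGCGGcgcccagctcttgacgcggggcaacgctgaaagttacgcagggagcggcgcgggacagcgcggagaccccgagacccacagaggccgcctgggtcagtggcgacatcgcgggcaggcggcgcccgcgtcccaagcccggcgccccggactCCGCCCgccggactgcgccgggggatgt
Kcnf1: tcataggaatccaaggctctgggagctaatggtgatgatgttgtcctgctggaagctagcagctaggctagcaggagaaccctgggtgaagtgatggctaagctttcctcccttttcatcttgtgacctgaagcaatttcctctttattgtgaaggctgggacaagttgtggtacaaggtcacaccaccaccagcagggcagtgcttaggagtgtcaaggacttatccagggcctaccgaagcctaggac

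The 4 upstream stretches differ in base composition. That of Kcnj4 holds 35 CpG dinucleotides and 3 GGGCGG matches, that of Kcng4 4 CpG and 1 CCAAT match, that of Kcna5 3 CpG and that of Kcnf1 1 CpG, the last 2 without a match to either motif. Among the 67 members 45 could be matched to 60 upstream stretches, with a median of 9.5 CpG (range 0 to 41), against 6 over all 32851 stretches of the same length. GGGCGG was found in 50% of the members' stretches and 32.7% of all, CCAAT in 28.3% and 33.8%, TATAAA in 3.33% and 12.4%, and TGACGTCA in 0% and 1.55%, each on either strand. These are matches of letters in a short window and were not tested against the regional levels.

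As to the name of the set, Kcne2 and Kcne4 encode small auxiliary subunits that line no pore. Kcne2 was above 1 CPM in few libraries (10 of 115 for AMY, 7 of 115 for VTA, 2 of 112 for Nac and 0 of 112 for PFC). In AMY its median was 0.356 CPM and its highest library 35.4 CPM, and in VTA 0.408 and 62.7 CPM. The libraries with the highest Kcne2 were also those with the highest choroid plexus list: the first 4 VTA libraries had 62.7, 24.9, 15.5 and 7.72 CPM of Kcne2 and summed choroid plexus levels of 11186, 5169, 2450 and 1411 CPM, against a regional median of 24.0 CPM. Without the libraries that stand apart the mean of Kcne2 was 0.451 ± 0.639 CPM in AMY and 0.414 ± 0.308 CPM in VTA. Kcnma1, the pore subunit of large-conductance calcium-activated channels, is outside the naming rule but was well expressed, at 118 ± 27.5 CPM in PFC and 62.2 to 69.2 CPM in the other regions.

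Of the genes that encode auxiliary and related subunits 24 were tested. Between Nac and VTA 4 were at least 2-fold higher in Nac and 6 higher in VTA (21.9% of all genes were called). Between AMY and PFC 1 was higher in AMY and 2 higher in PFC (11.2% of all genes were called). Kcnip2, which binds Kcnd channels, had 294 ± 53.5 CPM in Nac and 9.64 ± 6.19 CPM in VTA, and Kcnab1, which binds Kcna channels, 289 ± 55.2 and 62.8 ± 20.5 CPM. Hcn2, a pacemaker channel, had 286 ± 65.6 CPM in VTA and 103 ± 16.4 CPM in Nac.

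No member passed the threshold for housing in any region. Isolated and group-housed libraries were compared over the 8 pairs of groups that differ in housing alone, and edgeR called 0 of 67 members in AMY, Nac and VTA and 0 of 66 in PFC, where 0% of all genes were called in each region. limma voom and DESeq2 also called 0. At an unadjusted p under 0.05 there were 1 member in VTA (among 568 genes), 6 in AMY (708), 1 in Nac (421) and 0 in PFC (407). The fitted differences were small: within 0.1 of 0 on the log2 scale lay 65 of 67 members in Nac (median SE 0.060), 64 of 67 in VTA (0.058), 63 of 66 in PFC (0.042) and 58 of 67 in AMY (0.049).

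The members with the lowest p in AMY were Kcnd3, Kcna1 and Kcnc2. Kcnd3 had 157 ± 18.7 CPM in isolated mice (n = 57, lowest 125, median 152, highest 226) and 150 ± 18.3 CPM in group-housed mice (n = 58, lowest 108, median 145, highest 221), a difference of 0.07 ± 0.033 (SE, adjusted p = 0.995). The libraries overlapped, with 1 of 57 isolated libraries above the highest group-housed one. Kcna1 had 120 ± 27.7 and 110 ± 24.4 CPM (0.13 ± 0.060) and Kcnc2 84.0 ± 18.1 and 78.4 ± 9.07 CPM (0.09 ± 0.044), each with an adjusted p of 0.995. The largest fitted difference in AMY was that of Kcng4, 0.40, at about 1 CPM.

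Elsewhere the lowest p values belonged to Kcne2 (-0.57 ± 0.23), Kcna6 (0.09 ± 0.057) and Kcnj12 (-0.06 ± 0.041) in Nac, to Kcnj3 (-0.05 ± 0.028), Kcnj14 (-0.17 ± 0.092) and Kcnu1 (0.07 ± 0.043) in PFC, and to Kcne2 (0.83 ± 0.36), Kcnj8 (0.07 ± 0.039) and Kcnk10 (-0.09 ± 0.053) in VTA, as log2 differences with their SE and an adjusted p of 1.0 each. For Kcne2 in VTA 1 isolated library was at 62.7 CPM, where the isolated libraries had a median of 0.454 CPM and the group-housed ones a median of 0.370 CPM. None of the 24 auxiliary and related genes was called for housing in any region. Whether housing acted differently in females and males was tested as well, and edgeR, limma voom and DESeq2 called 0 members in any region (0% of all genes in each by edgeR). In that test by edgeR 5 members in AMY (among 1292 genes) and 2 each in Nac (2101), PFC (661) and VTA (329) had an unadjusted p under 0.05. Among the lowest p values of that test by edgeR were those of Kcnk9 in Nac (-0.41 ± 0.18), Kcnh4 in PFC (-0.35 ± 0.15) and Kcns2 in VTA (-0.21 ± 0.092), with adjusted p from 0.40 to 1.0.

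**Figure D3:**
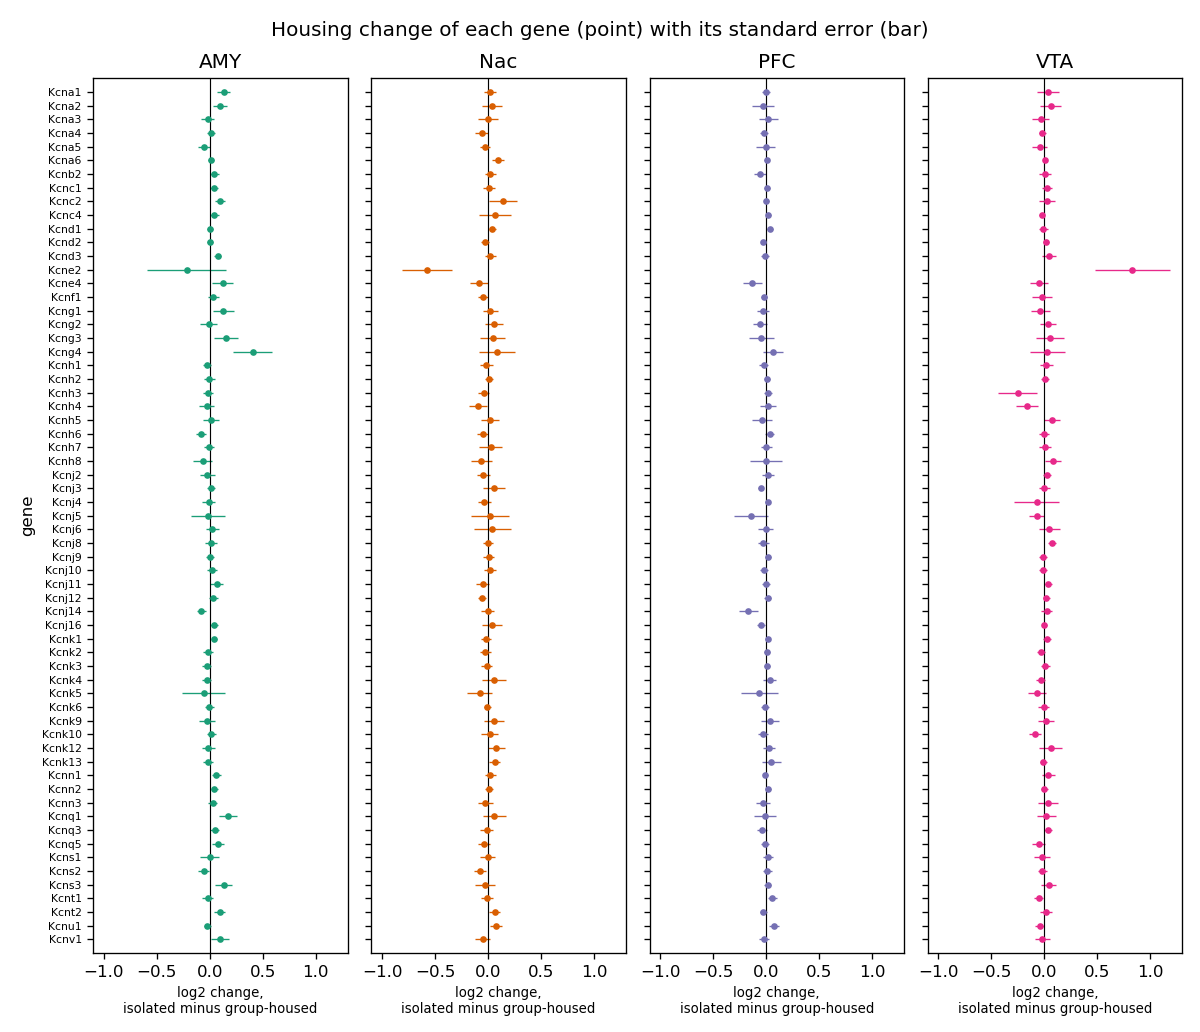
Fitted log2 difference between isolated and group-housed libraries for each gene shown (point) with its standard error (bar), in each region. Nearly all points lie within 0.1 of 0. The widest bars in Nac and VTA belong to Kcne2, which was not tested in PFC.

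Sex differences reached the threshold for 2 members in AMY (2.19% of all genes), 1 in VTA (0.332%) and 0 in Nac (0.272%) and PFC (1.12%). In AMY Kcnh3 was higher in females, with 104 ± 17.8 CPM (n = 59, lowest 51.4, median 106, highest 156) against 92.8 ± 13.7 CPM in males (n = 56, lowest 59.0, median 89.9, highest 123). The libraries overlapped, the male median being exceeded in 47 of 59 females and 7 of 8 pairs of groups in that direction, and the difference was 0.17 ± 0.045 (SE, adjusted p = 0.021). Kcne2 was lower in females by -1.297 ± 0.37 (SE, adjusted p = 0.037), at medians of 0.310 and 0.437 CPM. The choroid plexus list moved with it (3 of 6 genes lower in females, medians of the summed list 45.2 and 68.7 CPM), and leaving out the libraries that stand apart gave a Kcne2 difference of -0.50 (adjusted p = 0.20). Without replicate 2 of the isolated males with acute cocaine alone it was -0.98 (adjusted p = 0.14), and over all settings tried its adjusted p ran from 0.0034 to 0.20.

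Kcnj8, an inward rectifier subunit of ATP-sensitive channels and a gene typical of pericytes, was lower in females in VTA. Its level was 4.32 ± 0.681 CPM in females (n = 58, lowest 2.90, median 4.25, highest 6.17) and 4.88 ± 0.758 CPM in males (n = 57, lowest 3.63, median 4.88, highest 7.07). Of the female libraries 12 of 58 lay above the male median, 7 of 8 pairs of groups went down, and the difference was -0.17 ± 0.039 (SE, adjusted p = 0.016). In PFC its difference was of like size, -0.18 ± 0.051, lower in all 8 pairs of groups, with an adjusted p of 0.052. DESeq2 gave 0.038 there and edgeR without the libraries that stand apart 0.026, and over all settings tried it ran from 0.026 to 0.11. The mural list differed by a median of -0.14 in PFC (2 of 5 genes lower in females) and of -0.003 in VTA (0 of 5). The endothelial list differed by a median of -0.175 in PFC (2 of 5 lower) and of -0.001 in VTA (0 of 5). Of the astrocyte list 1 of 7 genes was lower in females in PFC. The part of these lists in the Kcnj8 differences was not tested.

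In Nac no member passed, by edgeR, limma voom or DESeq2, and 8 had an unadjusted p under 0.05, among 1570 genes. Among the lowest p values were those of Kcnj12 (0.14 ± 0.041, adjusted p = 0.16) and Kcnn2 (-0.09 ± 0.035, adjusted p = 0.33, lower in all 8 pairs of groups). In PFC 6 members had an unadjusted p under 0.05, among 2247 genes.

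For acute cocaine no member passed the threshold by edgeR (0 of 67 in AMY, Nac and VTA and 0 of 66 in PFC, where 0% of all genes were called in AMY and Nac, 0.0647% in PFC and 0.0467% in VTA). At an unadjusted p under 0.05 there were 5 members in VTA (among 1110 genes), 4 in PFC (1802), 4 in Nac (894) and 2 in AMY (538). limma voom called 0 members in each region, and DESeq2 1, Kcnh3 in VTA. In PFC Kcnv1 had 86.7 ± 11.4 CPM with cocaine (n = 30, lowest 63.5, median 85.3, highest 112) and 102 ± 15.04 CPM with saline (n = 28, lowest 72.2, median 98.8, highest 131). Of the cocaine libraries 4 of 30 lay above the saline median, and all 4 pairs of groups were lower with cocaine, by -0.26 ± 0.064 (SE, adjusted p = 0.10). Kcnj2 went the same way in all 4 pairs, from 15.8 ± 3.05 to 12.9 ± 2.74 CPM (-0.31 ± 0.079, adjusted p = 0.13), and so did Kcns3 (-0.13 ± 0.045, adjusted p = 0.35).

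In VTA the member with the lowest p was Kcnh3, with a mean of 3.74 ± 11.7 CPM with cocaine (n = 29) and 1.23 ± 0.541 CPM with saline (n = 28). The medians were 1.21 and 1.22 CPM, and the mean rested on the library at 64.4 CPM named above. The fitted difference was 1.12 ± 0.26 (SE, adjusted p = 0.061), over all settings tried the adjusted p ran from 0.011 (DESeq2) to 0.93 (limma voom), and without that library the difference was 0.34 (adjusted p = 0.77). Kcng1, which was also highest in that library, had 0.36 ± 0.13 with it and 0.19 without it. In AMY the lowest p values were those of Kcnc4 (-0.13 ± 0.063), Kcnk5 (-0.63 ± 0.31) and Kcnk4 (-0.11 ± 0.064), and in Nac those of Kcnq1 (-0.37 ± 0.15), Kcnh7 (-0.36 ± 0.15) and Kcnj3 (-0.32 ± 0.14), with adjusted p from 0.84 to 1.0.

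Chronic cocaine gave calls in PFC alone: 15 of 66 members (22.7%, where 7.12% of all genes were called), 2 of them higher and 13 lower with cocaine. In AMY (0.0518% of all genes), Nac (0.151%) and VTA (0.0817%) edgeR called 0 members, with 4, 4 and 1 at an unadjusted p under 0.05 among 1161, 3313 and 975 genes. limma voom called 0 members in these regions, and DESeq2 1, Kcnn2 in Nac. The median fitted difference of the members in PFC was -0.07, against 0.00 over all genes. The groups compared in PFC also differ in the number series of the sample titles: the chronic cocaine libraries carry numbers in the 1000s (n = 20) or the 1200s (n = 8), and the chronic saline libraries numbers in the 500s (n = 10) or the 1200s (n = 16). What these series of numbers stand for is not given in the sources used here. With the series as a term, and within the 1200s alone, edgeR called 0 members and 1 gene in each fit, and 3 and 4 members had an unadjusted p under 0.05, among 400 (2.35%) and 382 (2.19%) genes.

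The M-current gene Kcnq5 had the lowest p. Its level was 86.2 ± 9.72 CPM with cocaine (n = 28, lowest 67.2, median 85.5, highest 105) and 100 ± 16.3 CPM with saline (n = 26, lowest 73.4, median 99.6, highest 144). All 4 pairs of groups were lower with cocaine, by -0.23 ± 0.054 (SE, adjusted p = 0.0061). Within the 1200s it had 93.2 ± 9.02 CPM with cocaine (n = 8) and 96.8 ± 9.51 CPM with saline (n = 16), a difference of -0.06 (adjusted p = 1.0), while the saline libraries of the 500s stood at 106 ± 22.9 CPM and the cocaine libraries of the 1000s at 83.4 ± 8.67 CPM. The larger difference is thus between series that, among the chronic libraries, hold 1 treatment each, where series and cocaine cannot be told apart.

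**Figure D4:**
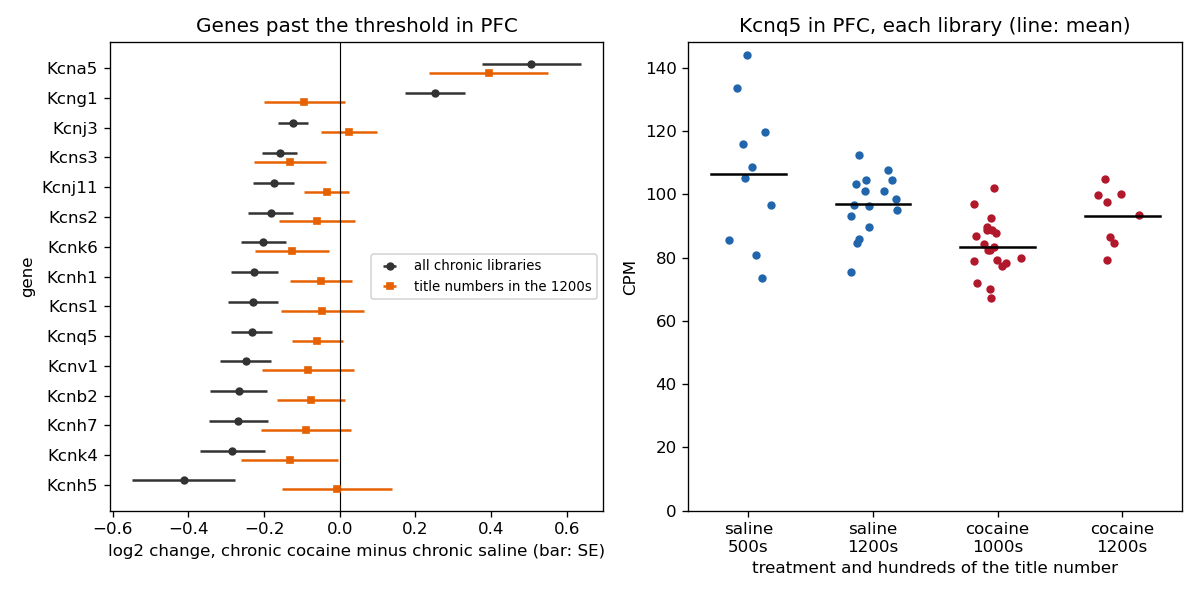
Left, fitted log2 difference between chronic cocaine and chronic saline in PFC (point, with SE as a bar) for the 15 genes past the threshold, over all chronic libraries and within the 1200s of the title numbers. Right, CPM of Kcnq5 in each library by treatment and number series, with the mean as a line; within the 1200s the means are 96.8 and 93.2 CPM.

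The higher members were Kcna5, at 5.56 ± 2.57 CPM with cocaine and 3.91 ± 1.89 CPM with saline (0.51 ± 0.13, adjusted p = 0.013), and Kcng1, at 65.0 ± 14.3 and 54.0 ± 11.02 CPM (0.25 ± 0.079, adjusted p = 0.037). Within the 1200s Kcna5 was at 0.39 ± 0.16 and Kcng1 had the other sign, at -0.09 ± 0.11, each with an adjusted p of 1.0. The largest of the lower members were the EAG-type gene Kcnh5 (-0.41 ± 0.14), Kcnk4 (-0.28 ± 0.087), the ERG-type gene Kcnh7 (-0.27 ± 0.078), the delayed rectifier gene Kcnb2 (-0.27 ± 0.076), Kcnv1 (-0.25 ± 0.066) and Kcnq5. Kcnh5 was at -0.01 within the 1200s, Kcnk4 at -0.13, Kcnh7 at -0.09, Kcnb2 at -0.08 and Kcnv1 at -0.08. Over the 15 members the median size went from 0.23 to 0.08 within the 1200s and to 0.06 with the series as a term, and 13 of 15 kept their sign in each (within the 1200s, all but Kcng1 and Kcnj3). Both fits reuse libraries of the fit that picked these members, so the kept signs are no independent check.

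The other lower members were Kcns1, Kcnh1, Kcnk6, Kcns3, Kcnj11, Kcnj3 and Kcns2, with differences from -0.12 (Kcnj3) to -0.23 (Kcns1 and Kcnh1). Without the 8 PFC libraries that stand apart 23 members were called (10.9% of all genes), and with no filter on low counts 8 (1.96% of all genes). Kcng1 was not among the 23 (0.23 ± 0.082, adjusted p = 0.054, edgeR) nor among the 8. limma voom called 12 members (6.48% of all genes), without Kcng1, Kcnh5 and Kcns2. Among the cell marker lists in PFC, 5 of 8 striatal genes (median of the list 0.50), 2 of 6 choroid plexus genes (0.69) and 2 of 4 dopamine neuron genes (0.24) were higher with chronic cocaine, as was 1 gene each of the astrocyte, oligodendrocyte precursor, thalamic and cerebellar lists. Lower were 3 of 8 general neuron genes (median -0.09) and 1 of 3 pituitary genes (-1.11), and the oligodendrocyte list had a median of 0.34 with 0 of 8 called. The part of these cells in the members' differences was not tested. Of the auxiliary genes Dpp10 (-0.16 ± 0.040), Kcnip4 (-0.20 ± 0.049), which bind Kcnd channels, and Abcc8 (-0.21 ± 0.067), the partner of Kcnj11 in ATP-sensitive channels, were lower and none higher.

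In Nac Kcnn2, a small-conductance calcium-activated channel, had 18.1 ± 1.84 CPM with chronic cocaine (n = 29, lowest 14.6, median 18.0, highest 22.6) and 15.99 ± 1.96 CPM with saline (n = 28, lowest 8.94, median 15.9, highest 19.99). All 4 pairs of groups were higher, by 0.19 ± 0.049 (SE, adjusted p = 0.071 by edgeR, with a range of 0.038 by DESeq2 to 1.0 with the series as a term). In AMY the lowest p values were those of Kcne2, Kcnh6 (-0.15 ± 0.065) and Kcnn1 (0.12 ± 0.054), and in VTA those of Kcnj8 (0.16 ± 0.055), Kcnt2 (-0.16 ± 0.084) and Kcnj12 (0.08 ± 0.047), with adjusted p from 0.48 to 0.94. The series of title numbers are split between chronic cocaine and chronic saline in these regions as they are in PFC.

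The difference of the acute cocaine effect between isolated and group-housed mice reached the threshold for 2 members in VTA (1.28% of all genes), Kcnc1 and Kcne2, and for 0 members in AMY, Nac and PFC (0% of all genes in each, and 0 members by limma voom and DESeq2). Kcnc1 had a median of 272 CPM with cocaine (n = 15, 201 to 326) and 300 CPM with saline (n = 13, 229 to 460) in isolated mice, and of 315 CPM with cocaine (n = 14, 212 to 385) and 262 CPM with saline (n = 15, 210 to 340) in group-housed mice. It was thus lower with cocaine in isolated and higher with cocaine in group-housed mice, and the libraries of all 4 arms overlapped. The difference of the effects was -0.48 ± 0.13 (SE, adjusted p = 0.039). It was -0.61 ± 0.14 within the 1000s of the title numbers (adjusted p = 0.0073) and -0.29 ± 0.22 within the 1100s (adjusted p = 0.87), and -0.46 ± 0.14 without the libraries that stand apart (adjusted p = 0.13). The call was also lost with limma voom and with no filter (adjusted p = 0.073 in both) and with the series as a term (adjusted p = 0.052), and it held with DESeq2 (adjusted p = 0.028).

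Among further members with their highest mean in VTA, picked after their values were seen, Kcna1 had -0.88 ± 0.29 (adjusted p = 0.088) and Kcng4 -1.33 ± 0.47 (adjusted p = 0.11), while Kcnh6 had the other sign, at 0.33 ± 0.12 (adjusted p = 0.13). At an unadjusted p under 0.05 there were 21 of 67 members (31.3%), among 3195 genes (18.6%). Within the 1000s 17 members were called, 4 higher and 13 lower (14.4% of all genes were). Within the 1100s 0 were called (0% of all genes), and 3 had an unadjusted p under 0.05, among 919 genes (5.39%). The parvalbumin interneuron list ran in the same order over the arms, with medians of 369 CPM (isolated, cocaine), 459 CPM (isolated, saline), 567.5 CPM (group housed, cocaine) and 266 CPM (group housed, saline), and the dopamine neuron list in the opposite order (3406, 2318, 2212 and 3418 CPM). Their part in these differences was not tested. Without the group-housed cocaine library named above for Kcnh3, 6 members were called (3.12% of all genes), with Kcna1, Kcnd1 and Kcnj11 among those added. Of the auxiliary genes Kcnab2 (-0.60 ± 0.16, adjusted p = 0.037) and Kcnab3 (-0.80 ± 0.20, adjusted p = 0.023), which bind Kcna channels, were called in the same direction.

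Kcne2 gave the largest value, 5.82 ± 0.97 (SE, adjusted p = 9.0e-05), but its medians were low in all arms, at 0.480 CPM (isolated, cocaine), 0.300 CPM (isolated, saline), 0.268 CPM (group housed, cocaine) and 0.353 CPM (group housed, saline). Isolated cocaine libraries reached 62.7 CPM, and the 3 highest were also the 3 with the most choroid plexus RNA of that arm, whose summed list ran from 17.7 to 11186 CPM. All 6 genes of that list were called in the same direction (median 4.74). Without the libraries that stand apart the value was 0.98 ± 0.48 (adjusted p = 0.28).

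**Figure D5:**
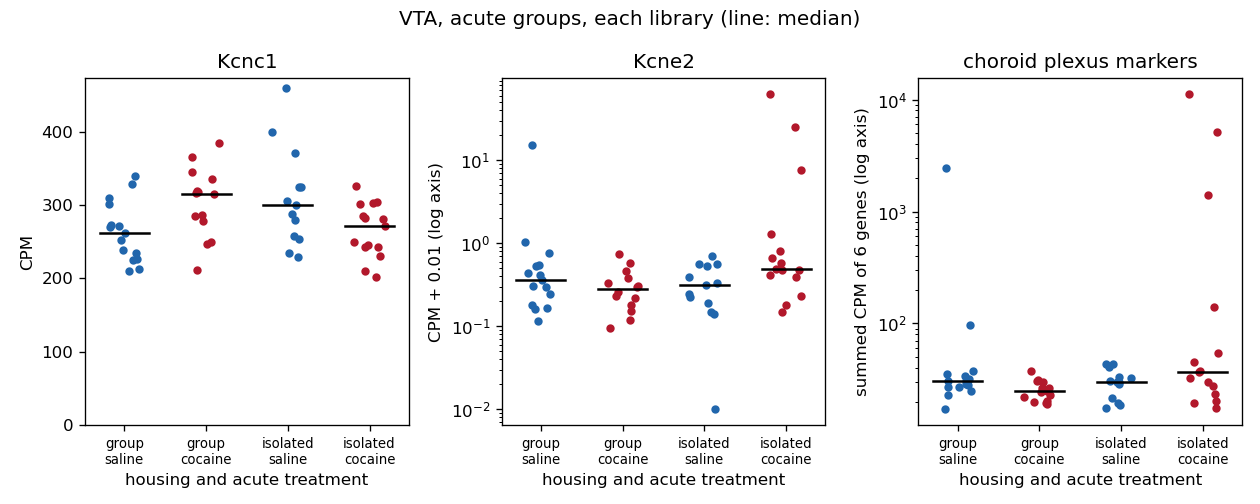
VTA libraries of the acute groups (points) by housing and treatment, with the median as a line: CPM of Kcnc1, CPM + 0.01 of Kcne2 on a log axis, and summed CPM of 6 choroid plexus markers on a log axis. The medians of Kcnc1 are 272 and 300 CPM (isolated, cocaine and saline) and 315 and 262 CPM (group housed, cocaine and saline), and the highest Kcne2 points sit in the arms with the highest choroid plexus points.

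The remaining tests of the acute cocaine effect by housing had their lowest p in AMY for Kcng3 (1.27 ± 0.32, adjusted p = 0.42), in Nac for Kcng2 (0.73 ± 0.24, adjusted p = 0.90) and in PFC for Kcnh8 (-0.80 ± 0.37, adjusted p = 1.0). At an unadjusted p under 0.05 there were 12 members in AMY, 8 in Nac and 2 in PFC, among 1719, 889 and 437 genes. For the chronic cocaine effect by housing edgeR called 0 members in every region (0% of all genes in each), with 0 in VTA (among 258 genes) and 3 in each of AMY (564), Nac (2332) and PFC (488) at an unadjusted p under 0.05. Kcna5 in PFC had the lowest p there: with chronic cocaine and saline it had 6.06 and 3.04 CPM in isolated mice and 5.07 and 4.78 CPM in group-housed mice, a difference of effects of 0.88 ± 0.26 (SE, adjusted p = 1.0). limma voom and DESeq2 also called 0 members for this comparison and for housing by sex in every region.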

How the data were processed

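RNA-seq counts of 454 mouse brain libraries were used. Per the labels' protocols, polyadenylated RNA was made into stranded libraries and read as 50-base single ends, and the submitters' processing notes name STAR, featureCounts, limma and the builds GRCm38 and mm10. The authors deposited raw read counts per gene. The strand setting of the counting is not given in the sources used here, so that counts of overlapping antisense genes are uncertain.

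Of 43346 genes 42462 could be given a symbol, and the other 884 held 0.11% of the counts. CPM is the count per library total, and levels per kilobase use exon length of GENCODE M21. Regional tests used 18627 genes over all libraries and those within a region 17391 (AMY), 17266 (Nac), 17003 (PFC) and 17144 (VTA), after edgeR's filter on low counts. The main test was edgeR's quasi-likelihood test (edgeR 4.0.16, R 4.3.3) with TMM scaling and Benjamini-Hochberg adjustment over all genes. Each region was fitted over its 16 groups, and effects are contrasts of group means. limma voom (limma 3.58.1), DESeq2 (1.42.0), RLE scaling, no filter, the number series of the titles and fits without the libraries that stand apart were tried as alternatives. The fits were tested on simulated data. No pair of libraries within a group looked like a library deposited in duplicate, and pairs across groups were not compared in this way.

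The members and all gene lists were chosen with earlier results of these data known. Named genes were those with the largest lead of each region, the smallest range, the highest level per kilobase, and, for each effect, those past the threshold or else the 3 of lowest p. Results on a few members are not reported here, and counts over members include them.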

Additional observations from a re-analysis of the deposited data

Results flagged for a closer look

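In VTA the effect of acute cocaine on Kcnc1 differed between isolated and group-housed mice by -0.48 (adjusted p = 0.039, edgeR), which a direct test of the difference picked out. The call was lost without the libraries that stand apart (adjusted p = 0.13), within the 1100s of the title numbers (0.87), with limma voom and with no filter (0.073 in both) and with the number series as a term (0.052). That on Kcne2 differed by 5.82 (adjusted p = 9.0e-05, edgeR), and without the libraries that stand apart by 0.98 (adjusted p = 0.28).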

How the results depend on the processing

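Counts of members called moved by over 1.5 times in these cases. For sex, AMY had 1 member with limma voom, with no filter and without the libraries that stand apart, and 1 to 2 when each replicate of the isolated males with acute cocaine was left out. PFC had 1 with DESeq2 and 1 without the libraries that stand apart. For chronic cocaine, Nac had 1 with DESeq2, and PFC had 8 with no filter (1.96% of all genes), 23 without the libraries that stand apart (10.9%), and 0 with the number series as a term and 0 within the 1200s (1 gene each). For acute cocaine, VTA had 1 with DESeq2 (0.0758% of all genes), 1 with the series as a term (0.0467%) and 4 within the 1000s (2.84%). For the acute effect by housing, PFC had 5 within the 1000s (2.65% of all genes), and VTA had 4 with DESeq2 (1.94%), 0 with limma voom (0.035%), 1 with no filter (0.259%), 1 with the series as a term (1.0%), 17 within the 1000s (14.4%), 0 within the 1100s (0%), 0 without the libraries that stand apart (0%) and 6 without replicate 7 of the group-housed females with acute cocaine (3.12%). The splits by series within the interactions and the fit without that VTA library were added after seeing the data. For the sex counts and the Nac count by DESeq2, how many of all genes were called is not given here. Those counts therefore describe the members alone and cannot be set against other genes. Signs turned for Kcnc4 in AMY with acute cocaine within the 1100s (0.032), for Kcne2 in AMY with chronic cocaine with the series as a term (-0.048) and within the 1200s (-0.028), for Kcnh6 in AMY with chronic cocaine within the 1200s (0.011), for Kcnk5 in AMY in the chronic effect by housing within the 1200s (-0.036), for Kcne2 in Nac with chronic cocaine by DESeq2 (0.016), for Kcne2 in VTA with acute cocaine within the 1000s (-0.20), and in PFC with chronic cocaine, with the series as a term and within the 1200s, for Kcng1 (-0.11 and -0.094) and Kcnj3 (0.053 and 0.025). The cause was not tested.

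The title numbers recur across regions. With the number as a replicate block in limma voom, the members called between regions were 22 (AMY and Nac), 14 (AMY and PFC), 25 (AMY and VTA), 29 (Nac and PFC), 36 (Nac and VTA) and 32 (PFC and VTA). The share of all genes called in that fit is not given here. These counts therefore describe the members' calls alone and cannot be set against other genes. Deviations of libraries with the same number correlated by a median of 0.03 to 0.09 over pairs of regions, and by more than 0.1 for 29 to 48 of the 99 to 106 numbers a pair of regions shares. What a number stands for is not given in the sources used here, and whether libraries of 1 number share an animal was not tested. Members near 1 CPM rest on 21.7 reads in a library of median depth, and small changes in them were not detectable.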
